A study of Sus scrofa with 24 samples.

Results

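Pools of male pig embryos from sows under the treatment that the labels call IS21FE were compared with pools of male control embryos at day 30 of gestation. The comparison rests on 6 of the 24 two-colour arrays of the study and on 3 of its 12 biological replicates. The sample labels set which arrays belong to it, but earlier results of these data were known when the comparison was chosen. On 3 arrays male IS21FE RNA was in the Cy5 dye and male control RNA in Cy3. The other 3 arrays, of the same replicate numbers, had the dyes exchanged. The latter arrays were multiplied by -1, and the 2 arrays of a number were averaged, which gave 3 replicates. All values are log2 ratios, so a ratio of 1 is a doubling on the linear scale and 0 is no difference.

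The sows were primiparous, that is, they had given birth to a single litter. The study put them through intermittent suckling, lactational oestrus and a mating strategy. IS21FE and IS21SE are the names of the strategies in the labels, where the letters are not spelled out, and control sows carry the name C28 in the design text. Embryos of 6 control sows and of 3 sows per strategy were pooled by sex, 3 to a pool, per the labels, and 200 ng of column-purified total RNA was labelled with spike-in RNA. For breed, sow age and the part of the conceptus that was lysed, nothing is given in the sources used here. The groups compared below are male IS21FE, female IS21FE and male IS21SE pools, each against control pools of the same sex, at 3 replicates a group. Female IS21SE pools entered the fits on all 12 replicates and the ranges over the 12 female arrays.

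At about this age a pig embryo has passed from laying out its body plan to building organs. The heart beats, the liver makes blood cells and plasma proteins, muscle precursors fuse into the earliest fibres, neurons leave the cell cycle and extend axons, and the gonad of XY embryos takes on a testis fate under SRY and SOX9. A pool of embryos therefore mixes many cell types, and a ratio reports the whole mixture.

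The deposited values do not state whether a column holds Cy5 over Cy3 or the opposite. Ratios are therefore given as positive or negative. Positive means more RNA in the IS21FE pool if the columns hold Cy5 over Cy3, and less if they do not. The values are ratios without intensities, so neither the tissue nor the sex of a pool can be checked on the level of its marker genes. Of the defining markers, 4 of 5 liver genes, 3 of 4 heart genes, 3 of 5 skeletal muscle genes, 2 of 4 neuron genes and 4 of 6 genes of male germ or Sertoli cells had a ratio. Probes with a value numbered 33324 to 37710 of 43749 on the 6 arrays. Precision is limited by this small number of arrays. The SD over probes was 0.937 to 1.33, against 0.620 to 0.890 on the 12 female arrays, while the interquartile ranges were alike (0.712 to 0.760, and 0.716 to 0.732). Between 5.58 and 10.6% of the values on a male IS21FE array exceeded 2 in size, against 0.851 to 3.34% on female arrays.

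After turning, the 2 arrays of a replicate agreed weakly. Spearman's rho across probes was 0.169 in replicate 1, 0.043 in replicate 2 and -0.0041 in replicate 3, where probes are no independent samples. Between arrays of different replicates it ran from -0.052 to 0.085 with the same dye order and from -0.144 to -0.053 with opposite order. For a typical gene the gap between the 2 arrays of a replicate (median 0.375, 0.430 and 0.445 in replicates 1 to 3) was larger than the size of their mean (0.244, 0.219 and 0.219). Replicate 3 thus holds arrays that do not run together, and counts without it are given below.

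No gene differed from 0 beyond the spread of the replicates once all genes were adjusted for. In the limma fit to male pools, 0 of 9806 genes passed an adjusted p of 0.05 (Benjamini-Hochberg; 0%), and the lowest adjusted p was 0.459. An unadjusted p under 0.05 was reached by 516 genes, or 5.26%, of which 233 were positive (2.38%) and 283 negative (2.89%). Without replicate 3 the unadjusted count was 497 of 9081 genes. The sign depended on the dye order: 212 of 780 such genes were positive on the arrays with IS21FE RNA in Cy5, and 494 of 803 on the arrays with control RNA in Cy5. Most ratios were small, with the 5th percentile of genes at -0.61 and the 95th at 0.56, and 329 genes (3.36%) reached a size of 1.

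Of the 8605 genes measured on all 6 arrays, 120 were positive on every array (1.39%) and 176 were negative on every array (2.05%). In the 3 replicates, 812 genes were positive throughout (9.44%) and 1102 negative throughout (12.8%). Across genes, Spearman's rho was -0.087 between replicates 1 and 2, -0.061 between 1 and 3, and 0.014 between 2 and 3. The replicates therefore did not rank the genes alike. A size of at least 1 together with 1 sign on 6 arrays was found for 8 positive and 14 negative genes. The gene descriptions below start from these genes. Their values chose them, and they are given as measurements without support from a test. Each mean is over 3 replicates and stands beside its SD, unless a smaller n is given.

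Among genes positive on all 6 arrays, SHC1, an adaptor that links receptor tyrosine kinases to RAS, had the largest mean of the 12 named, 1.18 ± 0.19. With IS21FE RNA in Cy5 the ratios of SHC1 were 1.05, 1.90 and 0.62 in replicates 1 to 3, and with control RNA in Cy5 they were 0.97, 0.86 and 1.64. All 6 arrays lay above 0.6, and IS21FE RNA in Cy5 gave the higher value in replicates 1 and 2 and the lower in replicate 3. PLEK, pleckstrin, a substrate of protein kinase C in platelets and white blood cells, had 0.78 ± 0.19. Its arrays gave 0.78, 0.37 and 0.59 in the former dye order and 0.39, 1.24 and 1.32 in the latter. The replicate values of PLEK, 0.58, 0.80 and 0.95, lay closer together than the arrays within replicates 2 and 3. GPT2, the mitochondrial alanine aminotransferase, had 0.84 ± 0.12, from arrays between 0.32 and 1.54.

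Of the other named positive genes, CLEC7A, known as dectin-1, a receptor for fungal beta-glucans on myeloid cells, had 0.72 ± 0.11 over 4 measured probes, whose means ran from 0.37 to 1.55. IFITM1, a membrane protein induced by interferon, had 0.88 ± 0.48, with replicate values of 0.36, 0.94 and 1.33. The spread of IFITM1 was the widest of the 12, and its lowest array, in replicate 1, gave 0.19. CLEC3B, tetranectin, a plasminogen-binding protein of plasma and matrix, had 0.79 ± 0.15, and 5 of its 6 arrays lay below 1.

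The other named positive genes serve varied cell functions. PAX6, a transcription factor of the eye and forebrain, had 0.48 ± 0.20 over 5 probes that ranged from 0.0028 to 2.56, so its probes disagreed in size. CAPRIN2, an RNA-binding protein, had 0.65 ± 0.23 and DCAF15, a substrate receptor of a cullin ubiquitin ligase, had 0.60 ± 0.18. For DCAF15 a single array, in replicate 1 with control RNA in Cy5, lay at 0.09 and the highest at 1.19. SLC14A2, a urea transporter, had 0.45 ± 0.18. STX2, a syntaxin of membrane fusion, had 0.40 ± 0.11 and SPATA5L1, an ATPase of ribosome maturation, had 0.37 ± 0.15. On its lowest array SPATA5L1 gave 0.029, close to no difference.

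**Figure D1:**
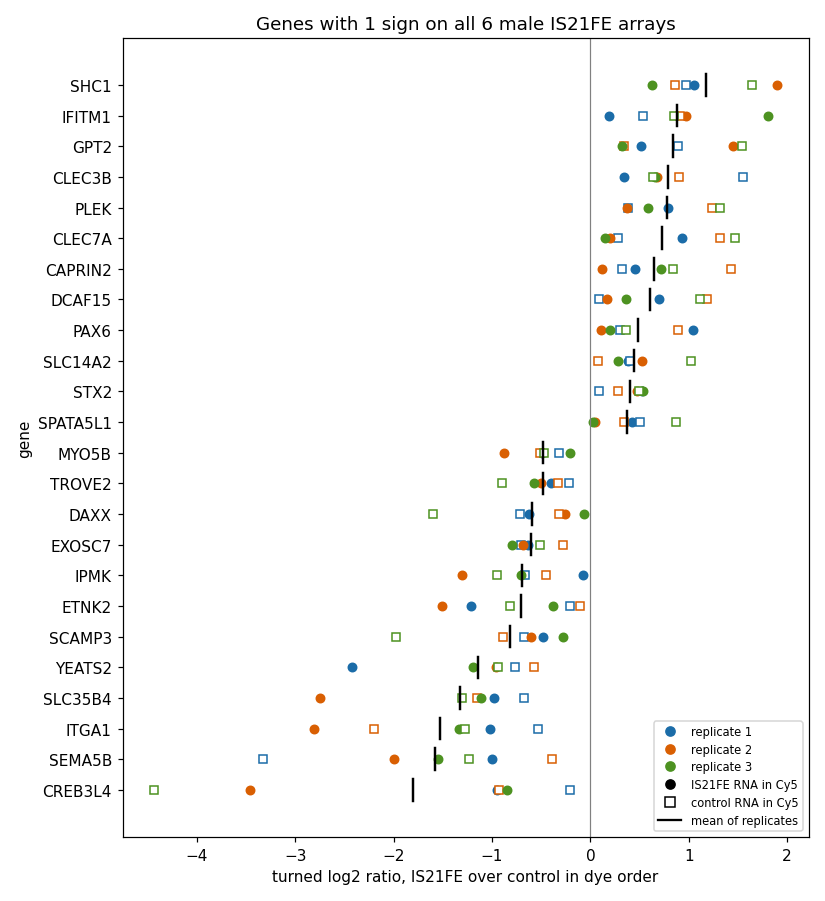
Turned log2 ratios (x axis) of the 12 positive and 12 negative named genes (y axis) with the same sign on all 6 male IS21FE arrays; filled circles are arrays with IS21FE RNA in Cy5, open squares arrays with control RNA in Cy5, colours mark replicates and black bars the mean. Positive means run from 0.37 for SPATA5L1 to 1.18 for SHC1, negative means from -1.80 for CREB3L4 to -0.48 for MYO5B, and the negative genes with the largest means also spread the most.

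On the negative side the means were larger and more spread. CREB3L4, a membrane-bound transcription factor of the CREB family, had -1.80 ± 1.09. Its replicates gave -0.58, -2.19 and -2.64, and a single array of replicate 3 reached -4.44. SEMA5B, a semaphorin that guides axons, had -1.58 ± 0.515, and ITGA1, the integrin chain of a collagen receptor, had -1.53 ± 0.885. ITGA1 gave -1.03, -2.81 and -1.34 with IS21FE RNA in Cy5 and -0.54, -2.20 and -1.28 with control RNA in Cy5. In ITGA1 both dye orders ranked the replicates alike, with replicate 2 the most negative. SLC35B4, a carrier of nucleotide sugars into the secretory pathway, had -1.33 ± 0.57, and all its arrays lay at or below -0.68.

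YEATS2, a reader subunit of a histone acetyltransferase complex, had -1.14 ± 0.42, with replicate values of -1.60, -0.77 and -1.07. SCAMP3, a membrane protein of secretory carriers, had -0.82 ± 0.28. With IS21FE RNA in Cy5 SCAMP3 gave -0.48, -0.60 and -0.28, and with control RNA in Cy5 -0.68, -0.89 and -1.97. The second dye order was the more negative in each replicate of SCAMP3. ETNK2, which phosphorylates ethanolamine for membrane lipids, had -0.70 ± 0.10, but its 2 probes gave -1.47 and 0.059. IPMK, a kinase of inositol phosphates, had -0.69 ± 0.28, with 1 array at -0.071.

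EXOSC7, a core subunit of the RNA exosome, gave the most even picture on the negative side. Its ratio was -0.61 ± 0.10, its 3 probes lay between -0.64 and -0.56, and its arrays gave -0.64, -0.69 and -0.80 in the former dye order and -0.71, -0.28 and -0.52 in the latter. Probes, dye orders and replicates of EXOSC7 all lay on the same side of 0. DAXX, a chaperone of a histone H3 variant, had -0.60 ± 0.28 over 4 probes between -1.79 and 0.028. TROVE2, the Ro protein that binds misfolded small RNAs, had -0.49 ± 0.22 and MYO5B, a myosin of recycling vesicles, had -0.48 ± 0.19. In the limma fit the adjusted p of these 24 genes ran from 0.734, shared by SHC1 and SCAMP3 among others, to 0.854 for SPATA5L1.

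The genes with the smallest p in the fit were mostly others, with even replicate values over uneven arrays. Of the 20 genes with the smallest p, 12 were measured on all 6 arrays and 2 of those had 1 sign throughout, and the median gap between the 2 arrays of a replicate was 1.52, against 0.397 over all genes. The smallest p belonged to EVI5L, a GTPase-activating protein of the Rab family, with 0.95 ± 0.044 (adjusted p = 0.459 in limma). Its replicate values were 0.94, 0.91 and 1.00, while its arrays ran from -0.053 to 2.05. EFCAB12, a protein with calcium-binding EF hands, had -1.10 ± 0.15, from arrays between -2.61 and 0.27. GRAP2, an adaptor of T cell receptor signalling, had -1.53 ± 0.19. Its single arrays gave -0.77, -1.11 and -3.12 with IS21FE RNA in Cy5, and -2.66, -1.54 and 0.017 with control RNA in Cy5.

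GAS8, a subunit of the dynein regulatory complex in motile cilia, had the largest positive mean among the named genes, 2.40 ± 0.39. The arrays of GAS8 gave 2.61, -0.056 and 4.23 with IS21FE RNA in Cy5 and 1.52, 4.68 and 1.41 with control RNA in Cy5. Replicate 2 therefore joined an array at about 0 with the highest array of the set. HOXD13, which patterns digits and the genital tubercle, showed the same averaging more sharply. Its replicate values were 1.12, 1.13 and 1.12, a mean of 1.13 ± 0.0071, from arrays at -0.42, 0.19 and -2.11 in the former dye order and at 2.66, 2.07 and 4.35 in the latter. All 3 arrays with control RNA in Cy5 lay above 2, and none of the others reached 0.2.

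Several genes of small p had values in 2 replicates. PRL, prolactin, had 1.62 ± 0.0036 (n = 2), from arrays at 0.81 and 2.43 in replicate 1 and at 0.21 and 3.02 in replicate 2. DIO3, the imprinted enzyme that removes iodine from thyroid hormone, had 1.20 ± 0.14 (n = 2), and its 2 arrays of replicate 3 gave 2.86 and -0.25. ASB15, a ubiquitin ligase subunit of striated muscle, had 1.66 ± 0.064 (n = 2), with arrays from -0.64 to 3.86. PRKG2, a cyclic GMP-dependent kinase with a role in bone growth, had -1.05 ± 0.18 (n = 2): the arrays with IS21FE RNA in Cy5 gave -2.46 and -2.96, and those with control RNA in Cy5 0.1 and 1.12. The sign of PRKG2 was thus that of 1 dye order. MBD1, a protein that binds methylated CpG sites, had -0.85 ± 0.32 and was negative on 5 of 6 arrays. EPB41L1, a link between membrane and cytoskeleton, was negative on 5 arrays as well (-0.73 ± 0.18, 5 probes from -1.23 to -0.16), and PHTF2 (0.62 ± 0.17) was positive on 5.

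**Figure D2:**
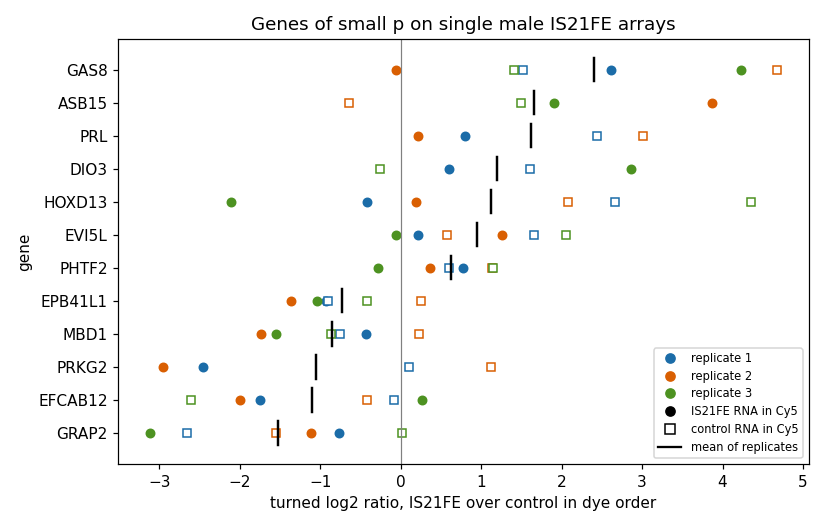
Turned log2 ratios (x axis) of 12 named genes with a small p (y axis) on the single male IS21FE arrays; symbols and colours as for the plot of genes with 1 sign, missing points are arrays without a pair of values. The 3 HOXD13 means of 1.12, 1.13 and 1.12 come from arrays between -2.11 and 4.35, and each of the 12 genes has at least 1 array on the other side of 0 or a gap of over 1 between the 2 arrays of a replicate.

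Genes of the contractile apparatus of skeletal muscle lay mostly on the negative side. Of 22 tested genes of the thin filament and Z disc 21 were negative, with a median of -0.21, and of 13 genes of the thick filament 11 were negative, with a median of -0.12, beside 5192 of 9806 and a median of -0.013 for all genes tested. None passed the adjusted test, and 1 gene of each list had an unadjusted p under 0.05, beside 2.89% of all genes on the negative side. The thin filament medians of replicates 1 to 3 were -0.28, -0.20 and 0.042, and the thick filament medians were -0.25, -0.16 and -0.091, so replicate 1 was lowest in both. Without replicate 1 the medians were -0.12 and -0.040. The thick filament median was -0.28 with IS21FE RNA in Cy5 but 0.024 with control RNA in Cy5. The thin filament median was -0.19 and -0.24 in the same order. In pooled embryos a different number of muscle cells and a different amount of RNA per muscle cell cannot be told apart, in whichever direction the columns run. Both lists share genes with one that earlier results of these data had already placed on the negative side, so their direction is no independent evidence.

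Among the thick filament genes, 3 of 13 were negative on all 6 arrays, beside 2.05% of all genes measured on 6 arrays. MYL1, the essential light chain of fast fibres, was the steadiest, at -0.21 ± 0.080. The arrays of MYL1 gave -0.25, -0.25 and -0.33 with IS21FE RNA in Cy5 and -0.20, -0.014 and -0.25 with control RNA in Cy5, over 5 probes between -0.28 and -0.14. The ratio of MYL1 was small but even over probes and replicates. MYOM2, myomesin of the M band, had -0.41 ± 0.23, and MYH1, an adult fast myosin heavy chain, had -0.78 ± 0.39 with replicates at -0.42, -0.71 and -1.20. Myosin heavy chain genes are near copies of each other, so the probes of MYH1 may also bind other members. MYLK2, the kinase of skeletal myosin light chain, had -0.57 ± 0.49, but its arrays with control RNA in Cy5 averaged 0.12.

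Of the thin filament and Z disc genes, MYOT, myotilin, which anchors actin at the Z disc, had the smallest p, with -0.68 ± 0.18. Its replicates gave -0.59, -0.56 and -0.89, yet 1 array was positive (0.13) and its 6 probes ran from -1.82 to 0.35. ACTN2, the alpha-actinin that cross-links actin in the Z disc of heart and muscle, had -0.29 ± 0.25 and was negative on all 6 arrays. ACTC1, the cardiac actin that embryonic skeletal muscle also uses, had -0.28 ± 0.32, with replicate 3 at 0.068. LMOD3, which nucleates actin filaments, had -0.20 ± 0.070. Its relative LMOD2, of heart and muscle, was the sole positive gene of the list, at 0.21 ± 0.18, and it was at -0.068 on the arrays with IS21FE RNA in Cy5 alone.

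**Figure D3:**
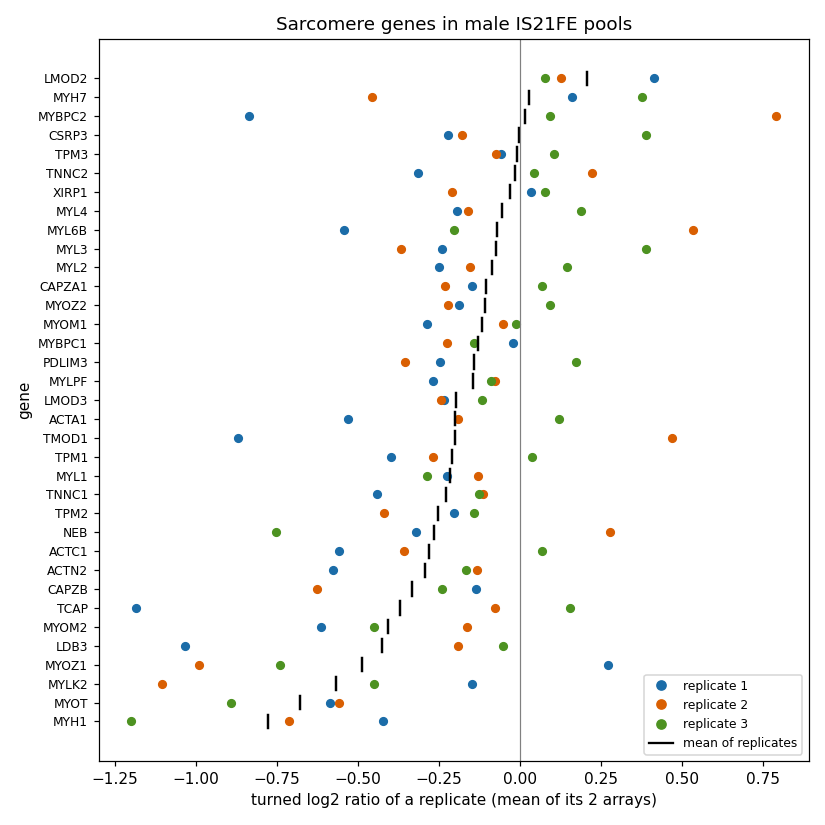
Turned log2 ratios (x axis) of the tested thick filament, thin filament and Z disc genes (y axis, sorted by mean) in the 3 male IS21FE replicates; points are replicate values coloured by replicate and black bars their mean. Means run from -0.78 for MYH1 to 0.21 for LMOD2, and replicate 3 lies to the right of 0 in many genes whose replicates 1 and 2 are negative.

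The calcium release and energy genes of muscle were mixed, with 7 of 17 positive and a median of -0.13. ENO3, the muscle enolase, had -0.48 ± 0.32, with replicates at -0.21, -0.83 and -0.40. RYR1, the calcium release channel, had -0.15 ± 0.041 and was negative on all 6 arrays, between -0.30 and -0.017. ATP2A2, the calcium pump of heart and slow muscle, had 0.16 ± 0.054. The replicate values of ATP2A2 lay close together, but its arrays ran from -0.20 to 0.47 and its 2 probes gave -0.060 and 0.38. Regulators of the muscle lineage had 5 of 14 positive and a median of -0.088, with MYF6, a late myogenic factor, at -0.36 ± 0.37 and FST, follistatin, a binder of myostatin and activins, positive on all 6 arrays at 0.18 ± 0.15.

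Heart genes lay on both sides of 0. Of 16 tested, 5 were positive, with a median of -0.077, and the replicate medians were -0.23, -0.30 and 0.30. The third replicate thus stood apart from the others in heart genes as in the thin filament. NKX2-5, the cardiac homeobox factor, had replicates at -0.54, -0.0066 and -0.043. Smooth muscle genes were negative in 10 of 11, but their median was -0.057, and CALD1, caldesmon, lay at -0.053 ± 0.036.

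Liver genes lay mostly on the positive side. Of 43 genes of plasma proteins 31 were positive, with a median of 0.12, and of 22 liver enzymes and regulators 18 were positive, with a median of 0.21, beside 4614 of 9806 genes in all. The plasma proteins differed between replicates: their medians were 0.50, -0.20 and -0.014 in replicates 1 to 3, and without replicate 1 the median was -0.11. The liver markers ALB, AFP, APOA1 and SERPINA1 had medians of 0.77, -0.22 and -0.074 in the same order. Enzymes and regulators stood at 0.31, -0.14 and 0.16, and without replicate 3 their median was -0.018. No liver gene passed the adjusted test, and 1 gene of each list was positive at an unadjusted p under 0.05, beside 2.38% of all genes. The direction was not particular to these pools. Plasma proteins were positive in 35 of 43 (median 0.31) in male IS21SE and 28 of 43 (0.086) in female IS21FE pools. Enzymes and regulators were positive in 18 of 22 (0.26) and 14 of 20 (0.16) in the same order.

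C9, the pore-forming component of complement, was the member with 1 sign on all 6 arrays. Its ratio was 0.83 ± 0.34, from arrays at 0.88, 0.17 and 1.18 with IS21FE RNA in Cy5 and at 1.08, 0.71 and 0.96 with control RNA in Cy5, and its 2 probes gave 0.79 and 0.87. HPX, hemopexin, a plasma scavenger of heme, had 0.49 ± 0.45, with replicate 1 at 1.01 and the others at 0.17 and 0.30. CP, ceruloplasmin, the copper carrier of plasma, was negative in 3 replicates, at -0.26 ± 0.13. APOE, a lipid carrier, had 0.17 ± 0.14, but was at -0.13 on the arrays with control RNA in Cy5 alone. CYP27A1, a mitochondrial enzyme of bile acid synthesis, had 0.25 ± 0.23, and CEBPA, a regulator of hepatocyte differentiation, had -0.39 ± 0.63, of which replicate 3 at -1.12 gave nearly all.

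**Figure D4:**
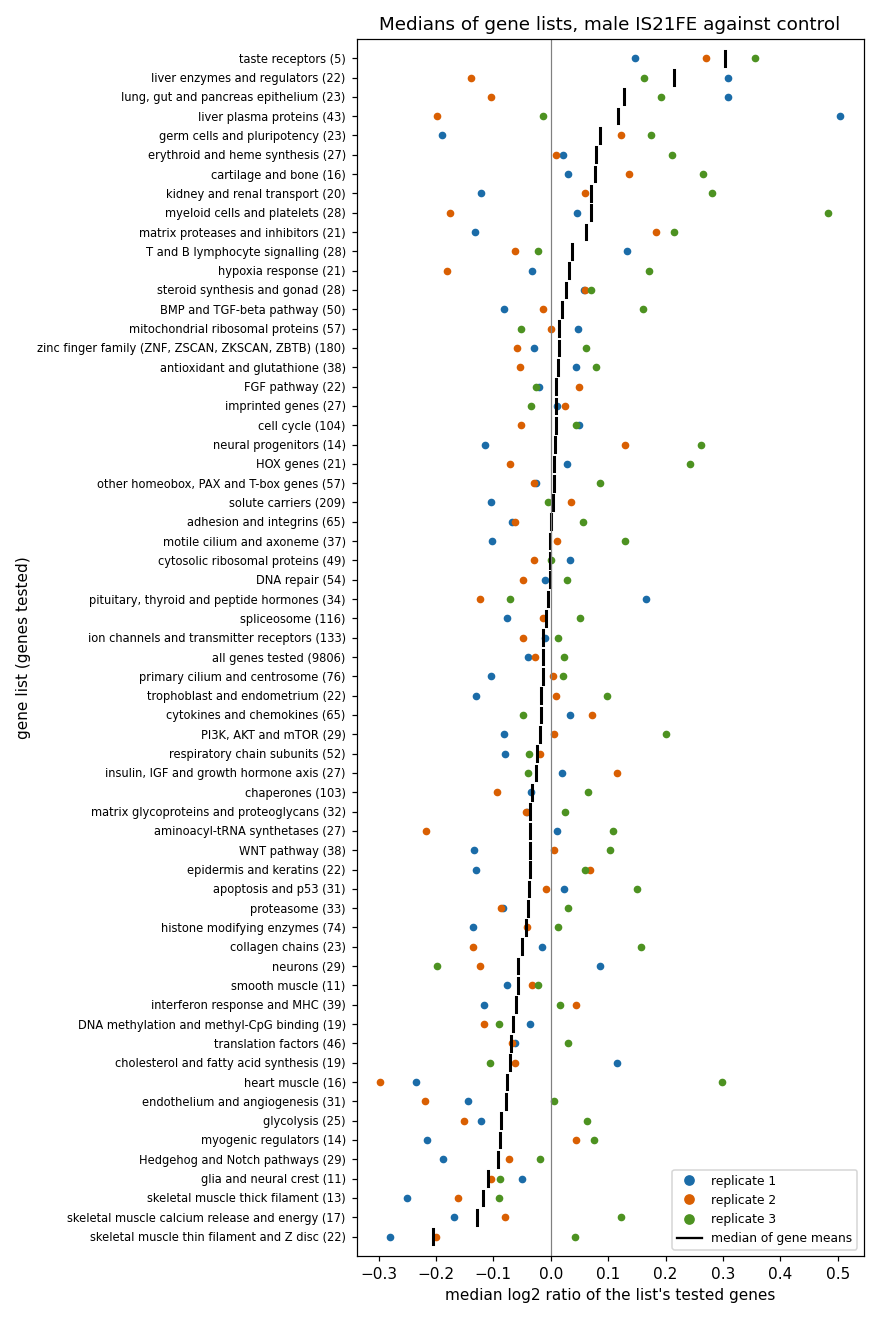
Median log2 ratio (x axis) of each gene list with at least 5 tested genes (y axis; the number tested in brackets), male IS21FE against control; coloured points are the medians of the single replicates and black bars the median of the gene means. Black bars run from -0.21 for the thin filament to 0.30 for 5 taste receptors, and in most lists the 3 replicates lie on both sides of 0.

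Neural genes held several negative members. Of 29 neuron genes 13 were positive, with a median of -0.057, and 5 of 28 were negative on all 6 arrays, beside 2.05% of all genes. Of these, NTRK3, the receptor for neurotrophin 3 on sensory neurons, had -0.56 ± 0.32. With IS21FE RNA in Cy5 NTRK3 gave -0.68, -0.090 and -0.22, and with control RNA in Cy5 -0.63, -1.56 and -0.18. NTRK2, the receptor for brain-derived neurotrophic factor, had -0.42 ± 0.19, from arrays between -0.72 and -0.08, and its 2 probes gave -0.44 and -0.40. Both neurotrophin receptors were thus negative on every array, with replicate 3 nearest to 0. L1CAM, an adhesion molecule of growing axons, had -1.16 ± 0.85, with replicate 3 at -2.09. NEFM, a neurofilament subunit, had -0.59 ± 0.54, and its replicate 2 was near 0 at -0.028. The neuron medians by replicate were 0.085, -0.12 and -0.20, so the list as a whole had no common sign. The neuron markers STMN2 and DCX were both positive, at 0.039 and 0.086 for the lower and the higher. Their medians were 0.63, -0.20 and -0.24 in replicates 1 to 3.

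Neural progenitor genes were split evenly, 7 against 7. Of 13 measured on all 6 arrays 2 were positive on each, beside 1.39% of all genes. DBX1, a homeobox factor of interneuron progenitors in the spinal cord, had 0.73 ± 0.20, with replicates at 0.51, 0.81 and 0.89. PAX6, described above, was the other. VIM, vimentin of neural progenitors and mesenchyme, was negative on all arrays at -0.18 ± 0.15. Glia and neural crest genes were negative in 7 of 11, and CRYAB, a small heat shock protein of glia, lens and heart, had -0.44 ± 0.12 on arrays between -0.68 and -0.31.

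Blood genes leaned to the positive side without large ratios. Of 27 erythroid and heme synthesis genes 18 were positive, with a median of 0.079, beside 4614 of 9806 genes in all. Male IS21SE pools had 21 of 27 positive (median 0.13), and female IS21FE pools 19 of 27 (0.030). TFRC, the transferrin receptor through which erythroblasts take up iron, was positive on all 6 arrays, at 0.38 ± 0.21 with replicates of 0.60, 0.17 and 0.37. UROD, an enzyme of heme synthesis, was positive on all 6 as well, at 0.22 ± 0.052, with 3 probes between 0.18 and 0.27. FECH, which inserts iron into heme, had 0.16 ± 0.10. ALAS1, the starting enzyme of heme synthesis outside red cells, was negative at -0.27 ± 0.25. The medians of the blood markers HBE1, HBZ, ALAS2 and KLF1 were -0.087, -0.39 and 0.70 in replicates 1 to 3, so the red cell signal differed between pools by more than the ratios of TFRC and UROD. Its part in these ratios was not tested.

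In the myeloid and platelet list 18 of 28 genes were positive, with a median of 0.069 and replicate medians of 0.046, -0.17 and 0.48. PLEK was its member with the smallest p. FCGR1A, a high-affinity receptor for antibodies, had 0.97 ± 0.63, and MARCO, a scavenger receptor of macrophages, had 0.89 ± 0.39. Both were positive on all 6 arrays. TREM2, a lipid-sensing receptor of macrophages and microglia, went the other way, at -2.24 ± 1.64. Its arrays gave -1.40, -2.05 and -4.66 with IS21FE RNA in Cy5 and -0.69, -1.08 and -3.55 with control RNA in Cy5. Both dye orders of TREM2 placed replicate 3 lowest and replicate 1 highest.

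Lymphocyte and interferon genes were as mixed. Among 28 lymphocyte genes 15 were positive, among them CD72, an inhibitory receptor of B cells, positive on all arrays at 0.56 ± 0.18. CD27, a costimulatory receptor, had 0.83 ± 0.56, but its arrays with IS21FE RNA in Cy5 gave 2.15, -0.67 and -0.40. CD79A, a signalling chain of the B cell receptor, had -0.58 ± 0.53. Interferon and MHC genes were negative in 22 of 39. IFITM1 stood at 0.88, whereas EIF2AK2, the kinase that stops translation upon sensing double-stranded RNA, had -0.60 ± 0.38. The chemokines CCL2 and CCL8, which attract monocytes, had 0.67 ± 0.60 and 0.44 ± 0.32, in both with replicate 1 nearest to 0.

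Endothelial genes were negative in 23 of 31, with a median of -0.078. EMCN, endomucin of veins and capillaries, was negative on all 6 arrays at -0.15 ± 0.053. ROBO4, an endothelial guidance receptor, had -0.27 ± 0.0695 in replicates that lay close together, although it was at 0.14 on the arrays with control RNA in Cy5 alone. PECAM1, an adhesion molecule of endothelial junctions, had -0.21 ± 0.18. FLT4, the receptor for lymphatic growth factors, had -0.16 ± 0.14, and 0.16 with IS21FE RNA in Cy5 alone.

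Hormone and growth factor genes showed no common direction. Of 34 genes of pituitary, thyroid and peptide hormones 16 were positive. CASR, the calcium-sensing receptor of the parathyroid, had -1.46 ± 0.42, with arrays from -3.42 to 1.40, and CALCB, a calcitonin-related peptide, had -0.34 ± 0.325. EDN1, endothelin, had 0.37 ± 0.24. In the insulin and growth hormone axis 13 of 27 were positive, and 4 were positive at an unadjusted p under 0.05, beside 2.38% of all genes. PRL was among these, and INSR, the insulin receptor, had 0.47 ± 0.20 with replicates at 0.70, 0.30 and 0.42 and 2 probes at 0.41 and 0.54. ADIPOR1, a receptor of adiponectin, had 0.33 ± 0.33. IGFBP5, a binding protein of insulin-like growth factors, had -0.26 ± 0.13, but 0.22 on the arrays with control RNA in Cy5 alone.

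Patterning and signalling genes were balanced. Of 21 HOX genes 11 were positive, with a median of 0.005. HOXB3, a gene of the hindbrain and neck, was positive on all 6 arrays at 0.32 ± 0.15. HOXD3 had 0.58 ± 0.28, but -0.19 on the arrays with IS21FE RNA in Cy5 alone, which is the dependence seen for HOXD13. LHX2, a homeobox factor of eye, limb and forebrain, had -0.50 ± 0.29. In the BMP and TGF-beta pathway, with 26 of 50 positive, GREM1, a secreted BMP antagonist of the limb bud, was positive on all arrays at 0.52 ± 0.31 and TGFBR2, a receptor for TGF-beta, had -0.46 ± 0.28. In the Hedgehog and Notch pathways 18 of 29 were negative, with a median of -0.093. SUFU, an inhibitor of Hedgehog signalling, had -1.18 ± 1.31, with replicates at -0.53, -0.33 and -2.68. Of the WNT genes 21 of 38 were negative, among them the receptor FZD6 at -0.99 ± 0.81. FZD6 averaged -1.81 with IS21FE RNA in Cy5 and -0.17 with control RNA in Cy5. FGF genes were split evenly, 11 against 11, with FGF9 at -0.47 ± 0.60 and KL, the klotho co-receptor, at -0.74 ± 0.71.

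Matrix and skeletal genes lay on both sides of 0. Matrix glycoproteins and proteoglycans were negative in 23 of 32, with a median of -0.036, and collagen chains in 13 of 23. FMOD, fibromodulin of tendon, had -0.25 ± 0.052 from replicates close together, but 0.0042 on the arrays with IS21FE RNA in Cy5 alone. SPARCL1, a matrix protein of brain and vessels, had -0.34 ± 0.40, and COL17A1, a collagen of epidermal attachment, had -0.37 ± 0.25. Proteases and their inhibitors were positive in 12 of 21. MMP9, gelatinase B of bone-resorbing cells and neutrophils, had 1.08 ± 0.74 with replicates at 0.35, 1.08 and 1.82. Its arrays averaged 0.32 with IS21FE RNA in Cy5 and 1.85 with control RNA in Cy5, and 2 of 6 were negative. MMP23B was positive on all 6 arrays at 0.27 ± 0.16. SOX5, a factor of cartilage formation, had 0.71 ± 0.46.

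Genes on the chromatin lists were negative somewhat more often than all genes tested, of which 5192 of 9806 were negative. The list named for histone-modifying enzymes also holds SETD3, whose target given below is actin. On it 45 of 74 genes were negative, with a median of -0.043 and replicate medians of -0.14, -0.041 and 0.012. DNA methylation and methyl-CpG binding genes were negative in 12 of 19, with a median of -0.066 and replicate medians of -0.036, -0.12 and -0.090. With IS21FE RNA in Cy5 the medians were -0.16 and -0.17, and with control RNA in Cy5 -0.027 and 0.026. KDM2A, a demethylase that binds unmethylated CpG islands, had -0.89 ± 0.52, although 2 of its 6 arrays were positive. KDM3B, a demethylase of histone H3, had 0.90 ± 0.64. SETD3, the histidine methyltransferase of actin, had -0.20 ± 0.024, but 0.035 on the arrays with control RNA in Cy5 alone. Imprinted genes, expressed from 1 parental copy, were split 14 against 13. MEG3, a maternally expressed non-coding RNA, was positive on all arrays at 0.20 ± 0.086, NAP1L5 had 0.24 ± 0.11 and INPP5F -0.58 ± 0.43.

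The machinery that every cell uses lay near 0, and its replicates lay close together. Cytosolic ribosomal protein genes were positive in 24 of 49, with a median of -0.0018, ratios from -0.24 to 0.19 and a median SD of 0.088, against 0.295 over all genes. RPS2 was negative on all 6 arrays, at -0.18 ± 0.069, and RPS29 had -0.23 ± 0.0097, although its 6 arrays ran from -0.96 to 0.51. Mitochondrial ribosomal proteins were positive in 31 of 57, and MRPS14 was negative on all arrays at -0.28 ± 0.054. Of the respiratory chain subunits 33 of 52 were negative. CYCS, cytochrome c, stood lowest among them at -0.54 ± 0.064, with arrays of -0.60, -0.34 and -0.58 in the former dye order and -0.46, -0.62 and -0.64 in the latter. CYCS was even over arrays and replicates, and its adjusted p was 0.974 in limma.

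Protein and RNA turnover genes gave single even members as well. In the proteasome, 22 of 33 were negative, PSMC5 of the ATPase ring was negative on all arrays at -0.25 ± 0.079, and PSMG4, an assembly chaperone, was positive on all arrays at 0.29 ± 0.12. Of 103 chaperones 62 were negative, with CCT3, a subunit of the chaperonin for actin and tubulin, at -0.30 ± 0.22. The list named for the spliceosome also holds other RNA helicases, such as DHX58 and DDX51, and 55 of its 116 genes were positive. SF3A2 was positive on all arrays at 0.59 ± 0.13, while DHX58 had -0.87 ± 0.38. Translation factors were negative in 30 of 46. The ratios of DDX51, an RNA helicase of ribosome assembly, were -0.60, -0.86 and -0.14.

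Cell cycle genes were positive in 55 of 104. WEE1, the kinase that delays entry into mitosis, was positive on all 6 arrays at 0.30 ± 0.051, with arrays between 0.074 and 0.61. CCNA1, a cyclin of germ cells, was negative on all arrays at -0.55 ± 0.25. CENPT, of the centromere, had -0.64 ± 0.21, but 0.12 on the arrays with control RNA in Cy5 alone. Glycolysis genes were negative in 17 of 25, with a median of -0.087, and LDHA of lactate formation had 0.17 ± 0.15. Among antioxidant genes GSTM3, a glutathione transferase, was negative on all arrays at -0.49 ± 0.39 and NQO1 had 0.41 ± 0.42.

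Cilium genes were balanced despite GAS8. Of 37 genes of the motile axoneme 18 were positive, with a median of -0.0013. ARMC4, which docks outer dynein arms, had -1.70 ± 1.13, with replicates at -0.43, -2.09 and -2.58. The dynein chains DNAL4 and DNAH9 had 0.65 ± 0.40 and 0.87 ± 0.74, and DNAH9 averaged -0.0037 on the arrays with IS21FE RNA in Cy5. For the primary cilium 40 of 76 were negative, among them RPGRIP1L of the transition zone at -0.67 ± 0.23 and IFT80, of transport along the axoneme, negative on all arrays at -0.22 ± 0.059.

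Kidney, gonad and placental genes were measured with wide spreads. Of 20 kidney and renal transport genes 12 were positive, with a median of 0.070 and replicate medians of -0.12, 0.059 and 0.28. MIOX, a renal enzyme that oxidises inositol, was positive on all 6 arrays at 0.48 ± 0.19, with 6 probes between 0.37 and 0.67. KL, named above, is on the kidney list as well and was negative, at -0.74 ± 0.71. SLC28A2, a nucleoside transporter, had 0.51 ± 0.32, and AQP2, the water channel of the collecting duct, had 0.14 ± 0.16. In the gonad list 16 of 28 were positive. AMH, the Sertoli cell hormone that removes the Müllerian duct, had 0.26 ± 0.20. The markers of male germ or Sertoli cells, SOX9, AMH, DHH and INSL3, ranged from -0.54 to 0.39. Their medians were 0.13, 0.018 and -0.27 in replicates 1 to 3. CYP21A2, an adrenal hydroxylase, had -1.02 ± 0.54. ESR1, an oestrogen receptor, had 0.65 ± 0.47, but its arrays in replicate 3 gave 3.68 and -1.79. NANOS2, a male germ cell regulator, had 0.80 ± 0.63. FUT1, a fucosyltransferase, had 0.67 ± 0.33 and was at -0.15 on the arrays with control RNA in Cy5 alone. The trophoblast markers PAG1, ELF5, UPTI and SAL1 ranged from -0.99 to 1.73, and their medians by replicate were -0.40, 0.49 and -0.16. Extraembryonic tissue in the pools therefore cannot be read from them in either direction.

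The difference between male and female pools under IS21FE was tested on all 12 replicates with weights per sex. In limma 0 of 8998 genes passed an adjusted p of 0.05 (0%; lowest 0.236), and 568 had an unadjusted p under 0.05 (6.31%). The smallest p was that of GAS8, at 2.40 ± 0.39 in male and -0.61 ± 0.59 in female pools, a difference of 3.01 ± 0.36 (SE; adjusted p = 0.236). PRKG2 had -1.05 in male and 0.37 in female pools, PIK3R1, a regulatory subunit of phosphoinositide kinase, 0.21 and -0.80, and ASB15 1.66 and -0.65. DDX51 had -0.53 against 0.86. DIO3 differed by 2.56 ± 0.41 (SE; adjusted p = 0.335), from 1.20 (n = 2) in male to -1.36 (n = 3) in female pools. Several of these genes had been chosen on 1 side of the difference, in earlier results or by their male ratio.

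Over 6990 genes measured in all replicates of both sexes, 656 were positive in all 3 male replicates, of which 194 were positive and 49 negative in all 3 female replicates. Of 878 genes negative in all 3 male replicates, 116 were negative and 163 positive in all 3 female replicates, beside 778 negative and 1674 positive there among all 6990. The following genes had 1 sign on all male arrays and the opposite sign in all 3 female replicates, and were picked for that after their values were seen. SCAMP3 had -0.82 ± 0.28 in male and 0.54 ± 0.31 in female pools, a difference of -1.35 ± 0.24 (SE; adjusted p = 0.367 in limma). NTRK3 had -0.56 and 0.33, MYO5B -0.48 and 0.23, and EXOSC7 -0.61 and 0.16. WEE1 had 0.30 and -0.27, EMCN -0.15 and 0.28, and PAX6 0.48 and -0.11. None of these differences passed the adjusted test. ITGA1 was negative in both sexes, -1.53 and -1.30, and SPATA5L1 was positive in both, 0.37 and 0.43. Male arrays had wider tails than female arrays, so a difference between the sexes sets arrays of unlike scale side by side.

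**Figure D5:**
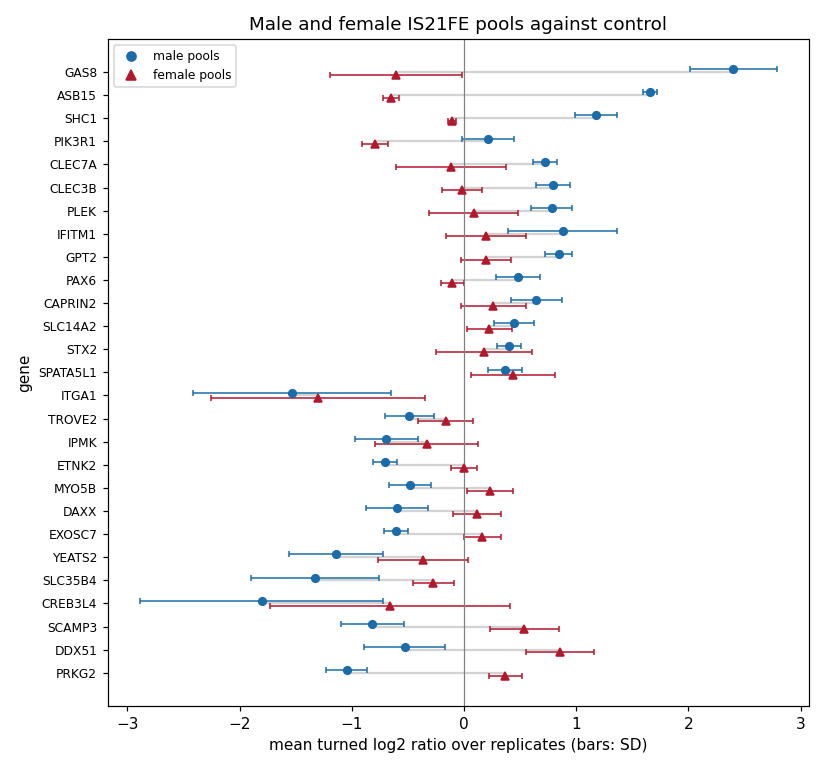
Mean turned log2 ratios (x axis; bars are SDs over replicates) of named genes (y axis, sorted by the difference) in male pools (blue circles) and female pools (red triangles) under IS21FE. GAS8 (2.40 and -0.61) and PRKG2 (-1.05 and 0.37) lie at the ends, and ITGA1 (-1.53 and -1.30) and SPATA5L1 (0.37 and 0.43) lie close together in both sexes.

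Between male IS21FE and male IS21SE pools, 0 of 9413 genes passed an adjusted p of 0.05 in limma (0%; lowest 0.626), and 560 had an unadjusted p under 0.05 (5.95%). EVI5L had the smallest p, with 0.95 under IS21FE and -0.20 under IS21SE, a difference of 1.15 ± 0.14 (SE). GRAP2 had -1.53 and 0.39 (n = 2), EFCAB12 -1.10 and 0.10, PHTF2 0.62 and -0.50, and TSPAN18, a tetraspanin of endothelium, 0.33 and -1.25. Each of these 5 genes had an adjusted p of 0.626. IFITM1 stood at 0.88 ± 0.48 under IS21FE and -0.98 ± 0.24 under IS21SE, a difference of 1.85 ± 0.29 (SE; adjusted p = 0.626). Of the genes of 1 sign, PLEK had 0.78 and -0.24, SEMA5B -1.58 and 0.51, and TREM2 -2.24 and 1.18, while SHC1 (1.18 and 0.69), ITGA1 (-1.53 and -0.89) and SLC35B4 (-1.33 and -0.77) had the same sign under both strategies. Several genes of this comparison had been chosen by their male IS21FE ratio, which is 1 side of the difference. The labels do not say which control pool met which treated pool, so whether the strategies share control pools is not known.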

How the data were processed

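For each probe and array the authors deposited a ratio of the channels on a log scale, taken here as log2, since the deposited values run from -9.34 to 9.85. How they normalized, corrected and filtered it is not given in the sources used here, and 16.6% of values are blank. The Cy5 and Cy3 labels gave each array its group, and replicates share a number in the array titles.

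Arrays with control RNA in Cy5 were multiplied by -1, and a replicate took the mean of its 2 arrays where each had a value. Probes were named through the platform annotation, with older symbols updated by accession or synonym: 18109 of 43749 probes carried a symbol, giving 11905 genes. Probes of a gene were averaged. limma 3.58.1 in R 4.3.3 fitted group means to the 6 male replicates and tested genes with at least 2 replicates, with Benjamini-Hochberg adjustment. The test for male minus female used all 12 replicates with a weight per sex. p-values measure the spread between replicate values from pools of different sows, which also holds differences between arrays. In the fit to male pools this spread was shared with the male IS21SE replicates. The script was tested on simulated data.

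The comparison, the 62 gene lists and the genes were chosen with earlier results of these data known. 2 lists were corrected by gene name after the files were seen. Named were the 12 positive and 12 negative genes of smallest p with 1 sign on 6 arrays, up to 4 list members of smallest p with 1 sign in 3 replicates, the 5 genes of smallest p in each comparison, and genes already named in earlier results. Lists are described by counts and medians, without a test. Alternatives changed the replicates, missing values, scale, centring, probes, dye order, averaging, variance and weights. No promoter, probe or protein sequence was used here.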

Additional observations from a re-analysis of the deposited data

How the results depend on the processing

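The adjusted call of 0 genes held for male IS21FE against control and for male IS21FE minus male IS21SE under every alternative run. The unadjusted count in the former ran from 497 to 580 genes with 1 replicate left out, and was 661 with all 12 replicates in the fit (lowest adjusted p 0.115), 446 with the 3 replicates alone, 403 with all replicates measured, 423 with array weights, 455 on single arrays with a dye term, 567 where 1 array of a replicate sufficed (chosen after seeing the data), 1696 of 31761 probes, and 780 or 803 with IS21FE or control RNA in Cy5 only. For male minus female IS21FE, 1 gene, LOC100524754, passed with control RNA in Cy5 only and 1, PIK3R1, on single arrays with a dye term (adjusted p = 0.0117). That fit treats the 2 arrays of a replicate, correlated at 0.171, as partly independent. Requiring both arrays of a replicate coincides with the reported setting and was not run apart.

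With IS21FE RNA in Cy5 only, ratios changed sign for HOXD13 (-0.78), LMOD2 (-0.068), CD27 (-0.00059), FLT4 (0.16), HOXD3 (-0.19), DNAH9 (-0.0037) and FMOD (0.0042). With control RNA in Cy5 only they did so for MYLK2 (0.12), APOE (-0.13), ROBO4 (0.14), IGFBP5 (0.22), CENPT (0.12), SETD3 (0.035), FUT1 (-0.15) and ESR1 (-0.41). ESR1 was also negative on single arrays with a dye term (-0.14) and where 1 array sufficed (-0.37). For CD27 and ESR1 these values also take in a probe without a value on the partner array. The cause was not tested. List medians changed sign for 12, 17 and 16 of 62 lists without replicates 1, 2 and 3, for 19 and 20 with a single dye order, and for 4 with scaling or centring.

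The shared replicate numbers were not shown to pair the samples: deviations of same-numbered male and female IS21FE replicates correlated at 0.16, 0.039 and 0.015, and those of male IS21FE and male IS21SE at 0.024, -0.013 and 0.020. With a replicate block 0 genes passed in either difference, with 550 of 8678 and 547 of 9189 genes at an unadjusted p under 0.05.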
